A study of Mus musculus with 8 samples.

Results

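The genes of the mitochondrial respiratory chain and ATP synthase were followed across the cells of erythroblastic islands, in which maturing red cells surround a macrophage. Members were all genes of the deposited count table whose symbol starts with mt-, Nduf, Sdha to Sdhd, Uqcr, Atp5 or Cox4 to Cox8, with 1 symbol dropped from the list. They numbered 105 of the 19669 genes in the table, and all 105 had at least 1 count. Of these, 92 are encoded in the nucleus and 13 in mitochondrial DNA (the mt- genes). The nuclear members comprise 36 subunits of complex I, 4 of complex II, 8 of complex III, 16 of complex IV and 16 of complex V, and 12 assembly factors. Complexes were assigned by gene name, except that Ndufa4 and Ndufa4l2 were counted with complex IV.

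The respiratory chain passes electrons from NADH and succinate to oxygen through complexes I to IV and pumps protons, and complex V (ATP synthase) uses the proton gradient to make ATP. Complexes I, III, IV and V are built from proteins of both genomes, so that nuclear and mitochondrial transcripts must both be supplied, while complex II is wholly nuclear. Mitochondrial DNA is transcribed as long precursors that are cut into the separate mRNAs. Red cell precursors need mitochondria for heme synthesis and remove them at the end of maturation by mitophagy, and neutrophils are known for few mitochondria and a largely glycolytic metabolism.

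Single-cell 3′ RNA libraries came from dissociated islands of male mice. Spleen and bone marrow of anemic Sle1.Yaa mice with a human TLR8 transgene gave 2 libraries each. Non-anemic Sle1.Yaa mice without the transgene gave 3 bone marrow libraries and 1 spleen library. All 8 libraries share the Sle1.Yaa background, a lupus-prone genotype with an extra copy of a Toll-like receptor 7 region, and none is from a healthy strain. The count table holds 24942 cells and does not tie cells to libraries, so genotypes and tissues were not compared. All cells were treated as 1 pooled sample, no test across samples was possible, and values are given with counting intervals and with their range over 8 barcode runs. A run is a stretch of columns with alphabetically sorted cell barcodes, and the number of runs equals the number of libraries, but no run was given a genotype. Runs held 447 to 6787 cells and 6195876 to 48442321 unique molecular identifiers (UMIs, counts of distinct captured mRNA molecules), and the median cell had 7554. Some 287 barcodes occurred in more than 1 run, in 1031 cells. The table holds no cell above 20% mt- UMIs, and 340 cells lay above 15%.

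Cells fell into 32 clusters, of which 27 could be named from marker genes, and 10196 cells were in erythroid-like clusters. The mt- genes took 2.89% of all UMIs and the nuclear members 1.67%. The main measure was their ratio, mt- UMIs per UMI of nuclear members in the same cells, which does not depend on how a library is scaled; over all cells it was 1.73. Levels of genes are given in CPM, UMIs per 1000000 UMIs outside globin and mt- genes, since globin fills much of a late erythroid cell's library. Fewer mitochondria per cell, fewer transcripts per mitochondrion and a different composition of the rest of the RNA cannot be told apart by such levels.

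Some promoters of the nuclear members hold sequence elements for which this gene family is known, and each element was missing from most of them. A RefSeq window from 250 bases before to 50 bases after the start (GRCm38.p6) was matched for 78 of the 92 nuclear members, with 83 windows in all. The core GCATGCGC of the nuclear respiratory factor 1 element was present on either strand in 14.5% of these windows, against 2.71% of all 32851 promoter windows. The ETS core CCGGAAG, bound by GABP among other factors, was in 25.3% of the members' windows against 8.86% of all, and the YY1 core AAGATGGC was in 13.3% against 2.75%. The GATA element AGATAA was in 7.23% of the members' windows and in 11.2% of all. Shown here are the windows of Cox6b1 and Cox6b2, which encode alternative forms of complex IV subunit 6b and parted from each other over erythroid stages. Both lie on the minus strand of chromosome 7, Cox6b1 at chr7:30626065-30626364 and Cox6b2 at chr7:4753045-4753344, and capitals mark an ETS core.
Cox6b1: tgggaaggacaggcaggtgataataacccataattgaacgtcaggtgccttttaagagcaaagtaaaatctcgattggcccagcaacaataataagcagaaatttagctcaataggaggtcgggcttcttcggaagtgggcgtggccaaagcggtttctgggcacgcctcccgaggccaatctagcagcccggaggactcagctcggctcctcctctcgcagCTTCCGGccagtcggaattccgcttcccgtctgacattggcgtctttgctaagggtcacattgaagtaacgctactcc
Cox6b2: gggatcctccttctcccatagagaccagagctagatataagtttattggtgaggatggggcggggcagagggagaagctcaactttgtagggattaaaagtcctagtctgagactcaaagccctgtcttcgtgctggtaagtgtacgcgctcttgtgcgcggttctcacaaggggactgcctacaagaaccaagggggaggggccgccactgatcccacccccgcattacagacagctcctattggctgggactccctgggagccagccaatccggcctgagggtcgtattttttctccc
The Cox6b1 window holds 1 ETS core and none of the other elements, and the Cox6b2 window holds none of them.

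Cell classes differed in the balance of the genomes. The ratio of mt- to nuclear UMIs was highest in stromal and endothelial-like cells, at 7.86 (95% interval for counting error 7.61 to 8.11), although these were only 61 cells. Macrophage-like cells had 5.41 mt- UMIs per nuclear UMI, with 3.11 to 7.59 over 4 runs. Mature B cell-like cells had 4.30, with 3.21 to 6.01 over 7 runs. Plasmacytoid dendritic cell-like cells had 3.18, plasma cell-like cells 2.92, mature neutrophil-like cells 2.90 and pro-B and pre-B cell-like cells 2.82. At the other end stood immature neutrophil-like cells with 1.06 (0.994 to 1.11 over 4 runs), erythroid-like cells with 1.38 (0.946 to 1.60 over 8 runs) and monocyte-like cells with 1.48 (1.33 to 2.09 over 6 runs). The run ranges of macrophage-like cells lay wholly above those of erythroid-like and monocyte-like cells. Neighbours in this order overlapped between runs, from macrophage-like and mature B cell-like cells down to neutrophil precursor-like, monocyte-like and erythroid-like cells. Depth moved with the ratio in macrophage-like cells, where the shallower part of the cells, up to the median of 2486 UMIs, had 2.26 and the deeper part 6.04; its part in the result was not tested.

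**Figure D1:**
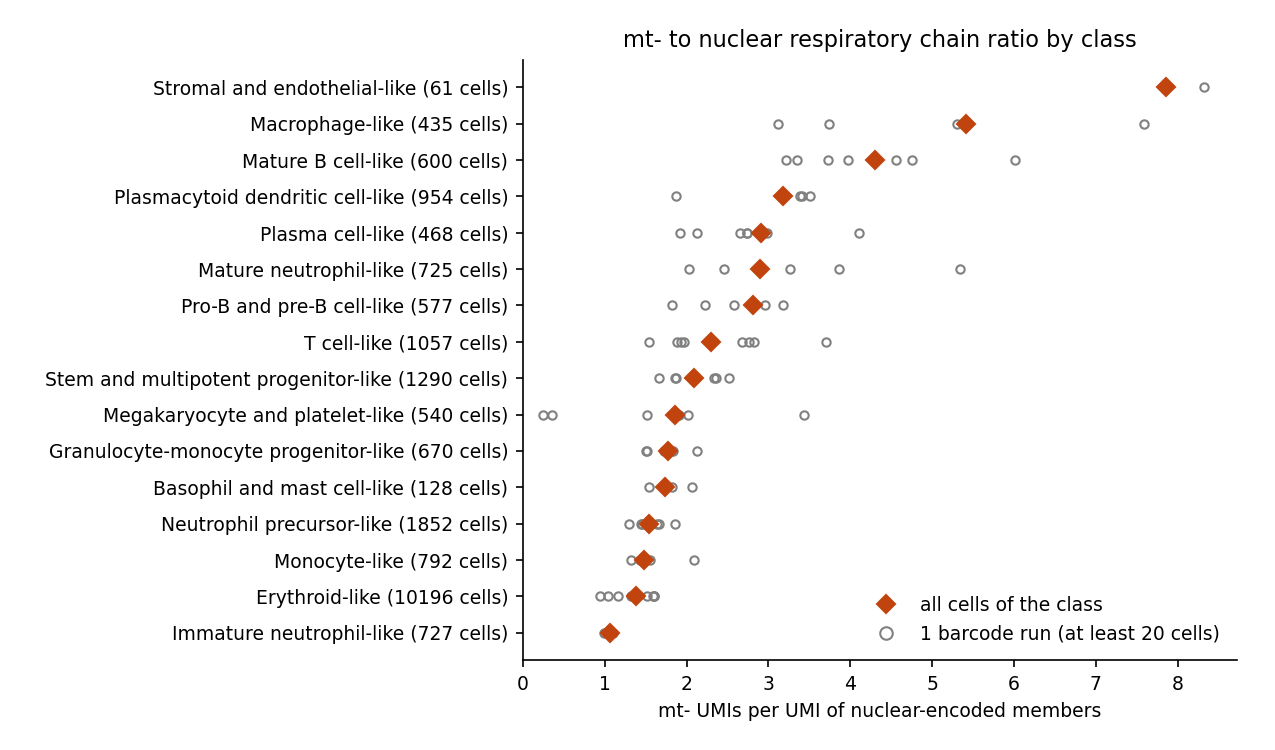
mt- UMIs per UMI of nuclear-encoded respiratory chain genes (horizontal axis) in each named class (rows, with the number of cells). Diamonds are all cells of a class and open circles are single barcode runs with at least 20 cells of it. Macrophage-like cells stand at 5.41 and immature neutrophil-like cells at 1.06.

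The 2 sums did not follow each other across the classes. Over the 5 erythroid stages and 15 other classes, the log2 levels of the nuclear sum and the mt- sum had a Pearson correlation of 0.34, a description over 20 groups of the same libraries. Genes outside the family whose pattern was most like the nuclear sum were Eif3k (0.964), a subunit of a translation initiation factor, Dynll1 (0.944), a dynein light chain, Psma5 (0.939), a proteasome subunit, Cct8 (0.936), a chaperonin subunit, and Eif5a (0.932), a translation factor. Within the family, Cox6b1 had a correlation of 0.952 with the nuclear sum, of which it is a part, and mt-Nd3 had -0.03.

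The balance also varied over the neutrophil series, by an amount that depended on how finely cells were clustered. Clusters were followed from granulocyte-monocyte progenitor-like cells (cluster 17, led by Ctsg and Mpo) through neutrophil precursor-like cells (cluster 15, led by Fcnb, and cluster 6, led by Chil3 and Ngp) and immature neutrophil-like cells (cluster 13) to an unnamed cluster led by Mmp8 and Retnlg (cluster 7) and mature neutrophil-like cells (cluster 14, led by Gm5483, Stfa2l1 and Il1b). Nuclear members summed to 28845 CPM in cluster 17, 20500 in cluster 15, 14248 in cluster 6, 11003 in cluster 13, 8417 in cluster 7 and 6912 in cluster 14. The mt- genes summed to 51110, 35122, 19307, 11709, 9968 and 20046 CPM in the same order. The ratio was therefore 1.77, 1.71, 1.36, 1.06, 1.18 and 2.90. The pooled nuclear sum was lower in each cluster than in the one before, while the pooled mt- sum had its lowest value in cluster 7 and stood higher again in cluster 14. Runs did not set the last step apart for the nuclear sum, which was 5563 to 9610 CPM over 5 runs of cluster 14. The mt- sum of cluster 14 was 14498 to 51317 CPM over runs. Single mt- genes could overlap, as mt-Co2 did, with 1550 to 4797 CPM in cluster 7 and 2296 to 9354.5 in cluster 14. In the mature cells the shallower part of the cells had a ratio of 3.98 and the deeper part 2.43, both above the pooled 1.77 of cluster 17. Over runs the ratio was 2.03 to 5.34 in cluster 14 and 1.51 to 2.12 in cluster 17, so that the lowest run of the mature cells overlapped the highest of the progenitor-like cells. With clusters drawn at resolution 0.5 in place of 1, the ratio was 1.54 in mature and 1.28 in immature neutrophil-like cells, and 1.75 in granulocyte-monocyte progenitor-like cells. The mature class then lay below the progenitor-like class, so the high ratio belongs to cluster 14 as drawn here.

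**Figure D2:**
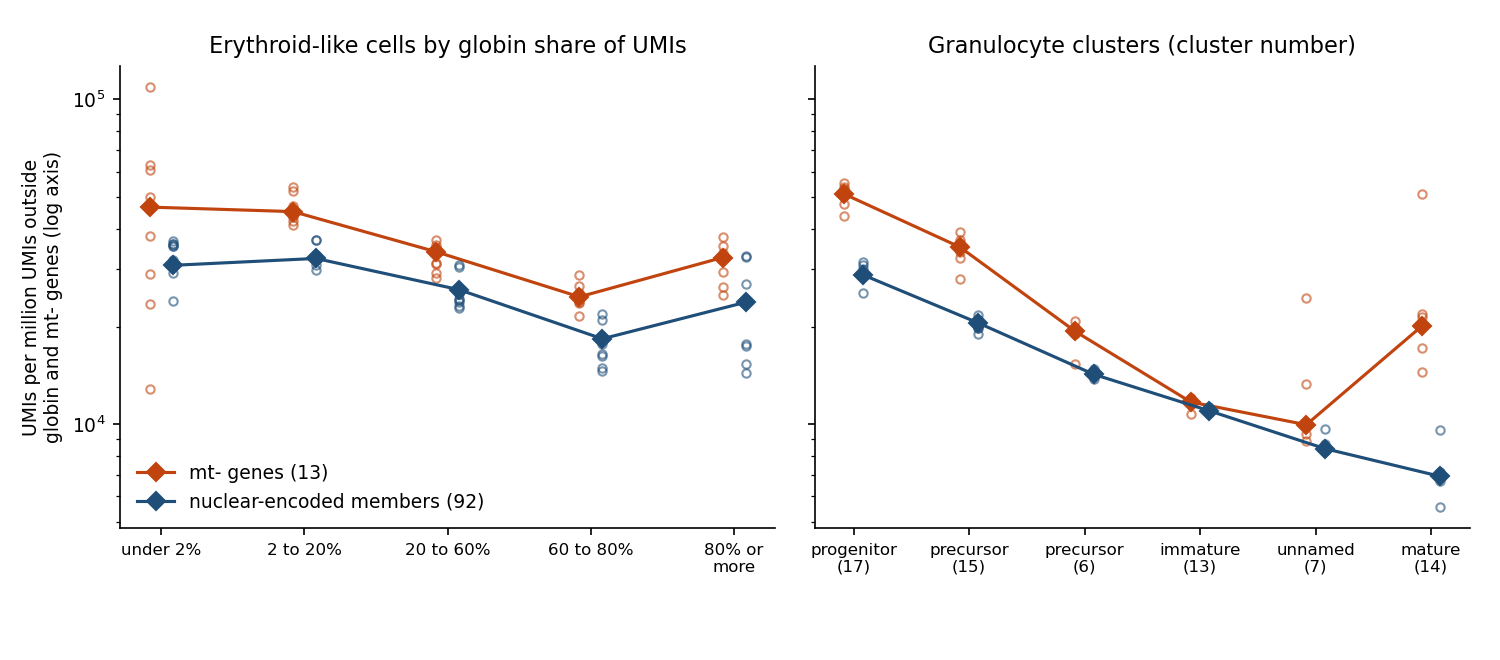
Summed level of the 13 mt- genes and the 92 nuclear members (log vertical axis, CPM outside globin and mt- genes) over erythroid globin shares (left) and granulocyte clusters (right). Diamonds joined by lines are all cells and open circles single barcode runs. The mt- line keeps near the nuclear line to cluster 7 and stands apart from it in mature neutrophil-like cells, at 20046 against 6912.

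Member by member, mature neutrophil-like cells were compared with progenitor-like cells on a log2 scale centred on the median measured gene, which itself was lower by 0.79 in the mature cells. A gene was called when it was at least 2-fold apart and of the same sign in all of the 4 runs with at least 20 cells of both classes. By this rule 31.5% of 5682 measured genes were higher in the mature cells and 23.9% were lower. Among 83 measured nuclear members, 52 (62.7%) were lower, none was higher, and the median was -1.22 (-1.34 to -1.04 over runs). No mt- gene was called, with a median of -0.59. At cluster resolution 0.5 the order of the genomes turned, with a median of -0.93 for nuclear members, of which 37 were lower, and of -1.29 for mt- genes. The share of all genes lower at that resolution was not counted. By complex, 24 of 36 measured subunits of complex I were lower, 1 of 4 of complex II, 4 of 8 of complex III, 8 of 13 of complex IV, 11 of 15 of complex V and 4 of 7 assembly factors. Atp5g1, which encodes subunit c of the ATP synthase rotor, was at 22.1 CPM in mature cells (16.6, 18.7 and 73.0 as lowest, median and highest of 5 runs), against 727 CPM in progenitor-like cells (614, 716 and 885). Its centred log2 difference was -3.73. Ndufb5, an accessory subunit of complex I, was at 15.2 CPM in mature cells, against 383 in progenitor-like cells, a log2 difference of -3.17. Atp5g2, the second subunit c gene, was at 37.3 CPM in mature cells, against 709 in progenitor-like cells, a log2 difference of -3.13. The runs of the 2 classes did not overlap for any of these 3 genes. The 13 mt- genes lay between -1.01 (mt-Nd4l) and 0.27 (mt-Nd6), and mt-Co1, the catalytic subunit of complex IV, was at -0.10.

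Other mitochondrial lists were examined in the same cells. Of 72 measured genes of the mitochondrial ribosome, 55 were lower and 1 was higher (median -1.44). Of 20 import genes, 12 were lower (median -1.67). Of 14 genes of the tricarboxylic acid cycle, 5 were lower, among them Idh2 at 3.73 CPM in mature cells and 132 CPM in progenitor-like cells. Etfb, which passes electrons to the quinone pool, was at 14 CPM in mature cells, against 665 in progenitor-like cells. Cycs, which encodes cytochrome c, was at 25.5 against 543 in the same order. Of 7 mitophagy genes 1 was lower and 5 were higher, among them Map1lc3b, a coat protein of autophagosomes, with 826 CPM in mature cells and 146 in progenitor-like cells.

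Erythroid-like cells were ranged by the share of their UMIs in globin genes, as under 2% (1126 cells), 2 to 20% (1832), 20 to 60% (3221), 60 to 80% (2120) and 80% or more (1897). These are ranges, not cell types. The ratio of mt- to nuclear UMIs was 1.51, 1.39, 1.31, 1.35 and 1.37 over these stages, so that pooled values varied little. Nuclear members summed to 30858, 32403, 25962, 18330 and 23747 CPM, and mt- genes to 46628, 45164, 33965, 24681 and 32620. Both pooled sums were lowest at 60 to 80% globin, and the run ranges of the nuclear sum at 60 to 80% (14641 to 21930) lay wholly below those at 2 to 20% (29796 to 36976). The range at 80% globin or more (14429 to 32994) held the whole range at 60 to 80%. The mt- sums of these 2 stages overlapped too (24948 to 37601 against 21546 to 28903), so runs did not set the 2 stages apart.

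The stage under 2% globin was mixed. Of its 1126 cells, 717 came from a shallow erythroid-like cluster (cluster 8, median 1460 UMIs) with a ratio of 0.36 and 358 from a deep one (cluster 26, median 20166 UMIs) with 1.82. Over runs the ratio of this stage was 0.363 to 4.54. Without the shallow cluster the stage held 409 cells and had a ratio of 1.95. Of these cells 81.7% came from run 6, and the 2 runs with at least 20 of them had 1.73 and 5.40. The later stages, with 7 or 8 runs each, had 1.44, 1.31, 1.35 and 1.38. Cluster 8 had 13049 CPM of mt- genes against 53620 in cluster 26, but its nuclear members, at 36298 CPM, were above the 29401 of cluster 26.

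Within the mitochondrial genome the balance of transcripts shifted with globin. mt-Co1 made up 13.5, 18.7, 26.6, 33.8 and 36.8% of mt- UMIs from the lowest to the highest globin share. At 80% globin or more its share was 30.4, 35.9 and 42.4% as lowest, median and highest of 7 runs, and at 2 to 20% it was 15.8, 18.6 and 22.6% of 7 runs, with no overlap. The complex I gene mt-Nd1 made up 5.92, 3.64, 1.87, 1.49 and 1.40% over the stages. mt-Cytb, the mitochondrial subunit of complex III, made up 8.35, 5.78, 3.89, 3.11 and 2.67%. mt-Nd3 made up 1.42, 1.06, 0.521, 0.405 and 0.382%, while mt-Atp6, a proton channel subunit of complex V, stayed between 18.9 and 22.1%. Shares are of 3′ UMIs and do not rank genes by transcripts, since capture differs between genes. The overlapping pairs mt-Atp8 with mt-Atp6 and mt-Nd4l with mt-Nd4 lie on shared mRNAs, and their counts cannot be cleanly separated.

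In levels, mt-Co1 was at 6298, 8427, 9037, 8354 and 12006 CPM from the lowest to the highest globin share. mt-Nd1 was at 2761, 1646, 635, 368 and 457 CPM in the same order. mt-Nd1 was at 368 CPM at 60 to 80% globin (263, 400 and 491 over 7 runs), against 1646 at 2 to 20% (1278, 1623 and 1886 over 7 runs). mt-Co1 was at 8354 CPM at 60 to 80% globin (6374, 8693 and 9598), against 8427 at 2 to 20% (6860, 8226 and 11894). The runs of the stages did not overlap for mt-Nd1 and overlapped widely for mt-Co1.

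**Figure D3:**
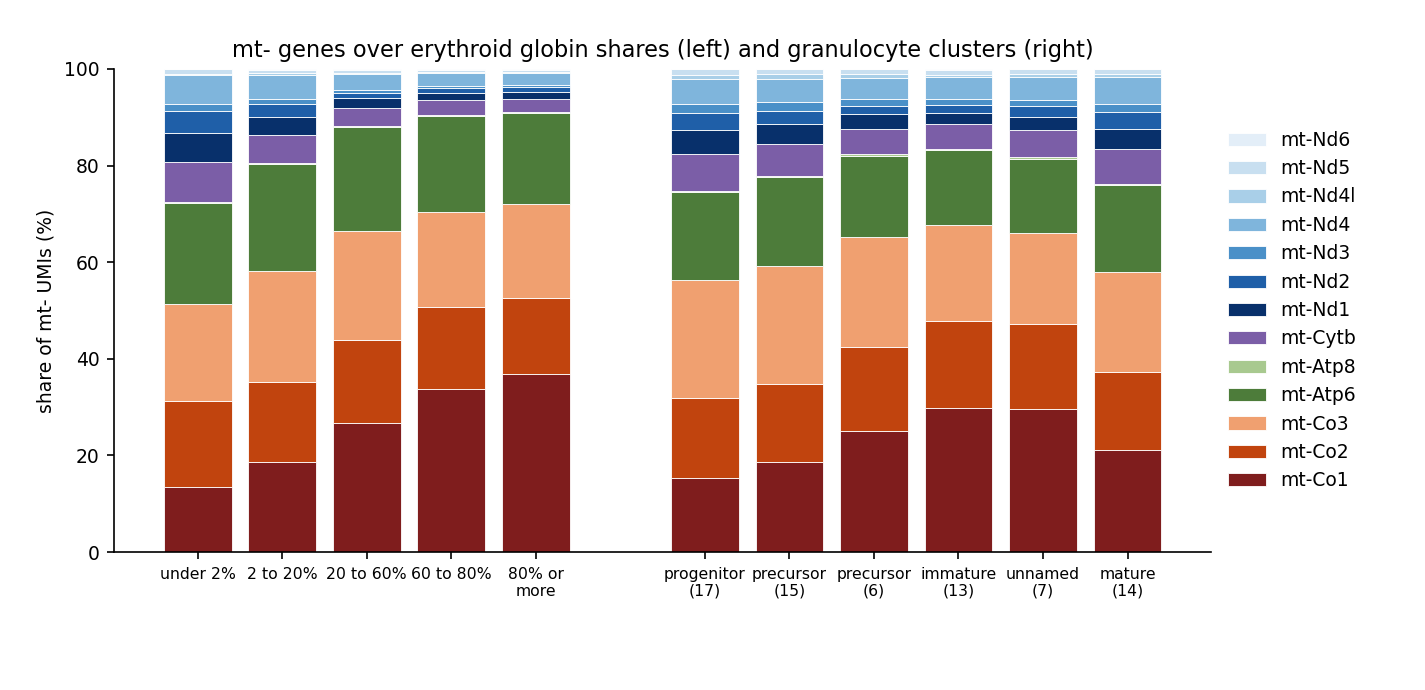
Share of mt- UMIs (vertical axis, %) taken by each of the 13 mt- genes in erythroid-like cells by globin share (left bars) and in granulocyte clusters (right bars, cluster number in brackets). mt-Co1, at the bottom of the bars, takes 13.5% under 2% globin and 36.8% at 80% or more, and 29.9% in immature neutrophil-like cells.

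Granulocytes had a higher mt-Co1 share in the middle of the series than at either end. mt-Co1 took 15.4% of mt- UMIs in cluster 17, 18.7% in cluster 15, 25% in cluster 6, 29.9% in cluster 13, 29.7% in cluster 7 and 21.2% in the mature cells of cluster 14. Over runs it was 25.8 to 30.9% in cluster 13 and 12.9 to 22.8% in cluster 14, with no overlap. mt-Nd1 took 4.89, 4.21, 2.97, 2.27, 2.75 and 4.19% in the same order.

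Among the nuclear members, complexes did not move as one over erythroid stages. Complex I took 28.5, 27.6, 25.8, 24.4 and 19.7% of nuclear member UMIs from the lowest to the highest globin share. Complex II took 2.06, 1.30, 0.903, 0.709 and 0.511%. Complex IV took 25.1, 29.2, 32.2, 32.0 and 35.7%, and complex V stayed between 30.3 and 32.3%. These are pooled shares, and members within a complex went different ways. From under 2% to 80% globin or more, Atp5l went from 1.75 to 8.42% of nuclear member UMIs and Atp5g1 from 3.51 to 0.467%. In complex IV, Cox6c went from 1.69 to 5.06% and Cox5b from 2.33 to 1.59%. Complex II, succinate dehydrogenase, also belongs to the tricarboxylic acid cycle.

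Cells of 60 to 80% globin were compared with those under 2% globin by the same rule over 7 runs, on a scale centred on the median gene, which was lower by 0.86. Of 5896 measured genes, 27.3% were higher and 17.8% lower. Of 87 measured nuclear members, 5 (5.75%) were higher and 22 (25.3%) lower, with a median of -0.35. Without shallow clusters 11 were higher and 17 lower, with 81.7% of the remaining cells under 2% globin from 1 run. Against cells of 2 to 20% globin 2 were higher. With no minimum level 1 was higher and 48 were lower, with a median of -1.04. Lower in the comparison as first given were 12 of 36 subunits of complex I, 3 of 4 of complex II, 1 of 8 of complex III, 1 of 13 of complex IV, 2 of 16 of complex V and 3 of 10 assembly factors. The lowest were Atp5g1, Atp5g2 and Ndufb5, while the other subunit c gene, Atp5g3, was not called (-0.90). Atp5g1 was at 66.6 CPM at 60 to 80% globin (30.3, 43.8 and 115 over 7 runs), against 1082 under 2% (694, 1162 and 1320 over 8 runs), with no overlap and a log2 difference of -2.97. Atp5g2 was at 33.9 against 610 CPM, a log2 difference of -2.96. Ndufb5 was at 21.5 against 331 CPM, a log2 difference of -2.58. The 5 that were higher were Atp5s, named as a coupling factor of ATP synthase (1.95), Ndufb11, an accessory subunit of complex I (1.70), Atp5l, subunit g of ATP synthase (1.49), Cox6a1 of complex IV (1.34) and Uqcrh of complex III (1.01). Levels of Ndufb11 did not overlap between runs (376 to 496 CPM against 108 to 276). Those of Atp5s, Atp5l, Cox6a1 and Uqcrh did overlap. Uqcrh was at 671 against 603 CPM, Cox6a1 at 611 against 435 and Atp5l at 842 against 539. Within runs the centred difference of Atp5l was 0.139 to 1.89. With CPM not centred, 1 member was higher and 49 were lower, and with CPM of all UMIs Ndufb11 and Atp5l were at -0.76 and -0.997. The share of all genes called was not counted under these alternatives. Without centring the median gene was itself lower by 0.86, so those counts are not a result about the members alone. Of the mt- genes mt-Nd3 (-1.75) and mt-Cytb (-1.47) were lower and none was higher, and mt-Nd2 (-2.10), mt-Nd1 (-2.02), mt-Nd4 (-1.21) and mt-Co1 (1.27) changed sign between runs.

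Other mitochondrial lists were counted in the same comparison, beside the 27.3% higher and 17.8% lower of all measured genes. Of 75 measured genes of the mitochondrial ribosome 48 were lower and none was higher (median -1.55), with Mrpl12 at 15.6 CPM at 60 to 80% globin and 432 under 2%. Of 20 import genes 11 were lower, among them Tomm40, the outer membrane channel, at 8.65 against 275 CPM. Of 14 tricarboxylic acid cycle genes 7 were lower and 1 was higher. Of 8 mitophagy genes 6 were higher and 1 was lower (median 4.01). Bnip3l, the mitophagy receptor of reticulocytes and here also a marker used to name clusters, was at 2247 CPM at 60 to 80% globin, against 137 under 2%. Gabarapl2 was at 1426 against 89.7 CPM and Atg4a at 384 against 13. Of 15 assembly genes of complexes III and IV, 3 (20%) were higher, a share below that of all genes, among them Cox17, which delivers copper to complex IV, at 392 against 206 CPM, and Pet100 at 145 against 43.8, while Uqcc2 of complex III assembly was lower at 16.1 against 180. Within the 7 runs the centred log2 difference was 0.204 to 1.14 for Cox17 and 0.980 to 1.998 for Pet100. Both ranges lay below the pooled values of 1.75 and 2.38.

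The forms of complex IV subunit 6b parted over erythroid stages. Cox6b2 is known mainly as the testis form of this subunit and Cox6b1 as the general one. Cox6b2 made up 24.3, 22.1, 31.5, 41.6 and 64.6% of their joint UMIs from the lowest to the highest globin share. At 80% globin or more its share was 49.5, 64.3 and 77.3% as lowest, median and highest of 7 runs, and at 2 to 20% it was 19.98, 21.6 and 27.99% of 7 runs, with no overlap. In the class next in order, stem and multipotent progenitor-like cells, the share was 16.1%. It was 8.51% in basophil and mast cell-like cells, 6.38% in granulocyte-monocyte progenitor-like cells, 0.804% in mature neutrophil-like cells and 2.005% in the macrophage-like class. In levels, Cox6b2 was at 757 CPM at 80% globin or more (183, 463 and 1406 over 7 runs), against 199 at 2 to 20% (155, 204 and 296). Cox6b1 was at 414 CPM at 80% globin or more (164, 250 and 682), against 698 at 2 to 20% (589, 695 and 835). The levels overlapped between runs for both genes, while the shares did not. The annotation places Cox6b2 at chr7:4751792-4753094 on the minus strand, and no other annotated gene overlaps it.

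**Figure D4:**
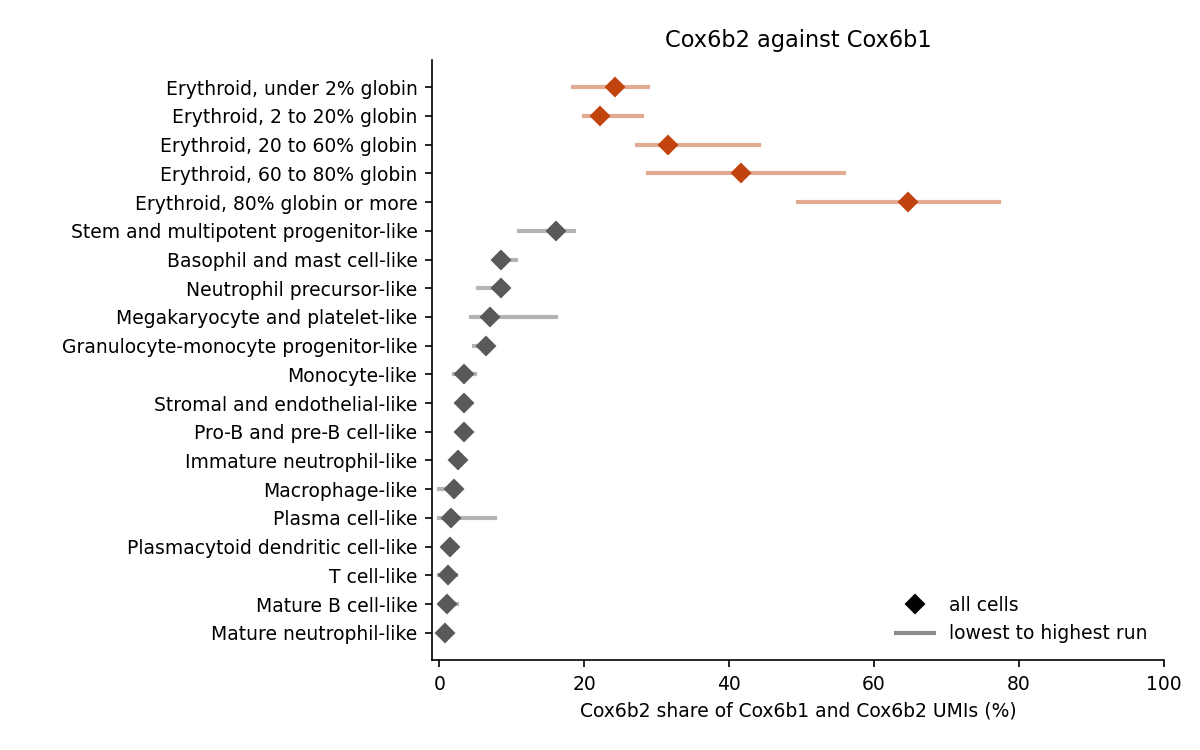
Cox6b2 share of the joint UMIs of Cox6b1 and Cox6b2 (horizontal axis, %) in erythroid-like cells by globin share (orange) and in the other classes (grey). Diamonds are all cells and lines span the lowest to the highest run. The share reaches 64.6% at 80% globin or more and is at most 16.1% in the other classes.

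Other paralogues differed by class as well. Among the subunit c genes, whose coding sequences are alike so that reads could be split between them, Atp5g1 held 49.9, 47.7, 38.0, 28.4 and 37.5% of joint UMIs over the erythroid stages. Atp5g3 held 22.0, 32.9, 50.8, 57.2 and 35.8%. In mature B cell-like cells Atp5g2 held 59.0%. Cox7a2l, a supercomplex factor related to the complex IV subunit Cox7a2, held 38.9, 28.5, 19.8, 14.9 and 10.0% of the joint UMIs of the Cox7a2 family over the stages. It held 66.2% in mature B cell-like cells. Cox4i2, a hypoxia-linked form of complex IV subunit 4, was 1.09% of joint Cox4i1 and Cox4i2 UMIs in macrophage-like cells (21 UMIs) and 0.626% in plasma cell-like cells (18 UMIs). Ndufa4l2, the hypoxia-induced relative of Ndufa4, had 19 UMIs in plasma cell-like cells and 2 in stromal and endothelial-like cells.

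Macrophage-like cells, the class that holds the island's central cell, were compared with monocyte-like cells. The 2 genomes went in opposite directions. Of 6621 measured genes 14.7% were higher and 11.5% lower in macrophage-like cells, the median gene was higher by 0.07, and 3 runs had enough cells of both. Of 83 measured nuclear members 22 (26.5%) were lower and none was higher (median -0.73). Of the 13 mt- genes 7 (53.8%) were higher, all 13 were above 0, and the median was 1.05. mt-Nd3 was at 2365 CPM in macrophage-like cells, against 635 in monocyte-like cells, a log2 difference of 1.82. mt-Nd2 was at 4166 against 1229 CPM (1.69) and mt-Nd4 at 6268 against 1895 (1.65). Within the 3 runs these differences were smaller than in the pooled cells. They were 0.794 to 1.58 for mt-Nd3, 0.960 to 1.58 for mt-Nd2 and 0.721 to 1.16 for mt-Nd4. Cox5b of complex IV was at 219 CPM in macrophage-like cells and 699 in monocyte-like cells, a log2 difference of -1.69. Ndufb11 (-1.46) and Ndufs4 (-1.30), both of complex I, were lower too. Over the 3 runs Cox5b was at -1.71 to -1.10, Ndufs4 at -1.47 to -0.883 and Ndufb11 at -1.34 to -0.940, weaker than its pooled value. None of the 4 genes of complex II was called, and Sdhc (0.83) and Sdha (0.60) lay above 0 while Sdhb (-0.39) and Sdhd (-0.54) lay below. The count of lower nuclear members was 36 without run 5 and 6 without run 7. With cells of at least 500 genes and at most 10% mt- UMIs it was 7, and the mt- median was 0.70. For these alternatives the share of all genes called was not counted. Depth differed too, with a median cell of 2486 UMIs in the macrophage-like class against 16758 in the monocyte-like class, and globin took 3.64% of UMIs against 0.139%. The part of depth and of globin-bearing RNA in these differences was not tested.

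Plasma cell-like cells were compared with mature B cell-like cells, and here the direction of the nuclear members depended on the setting. Immunoglobulin genes took 55.3% of plasma cell UMIs and 1.37% in mature B cell-like cells, so that the scale decides the direction. Centred on the median gene, which was lower by 1.02, 12 of 81 measured nuclear members (14.8%) were higher and none was lower, with a median of 0.51 over 7 runs. Of all 5396 measured genes 10.4% were higher and 8.23% lower, so the share of higher members was not far from that of all genes. Of the 12, complex I gave 9, complex III 2 and complex V 1. Ndufa1 of complex I was at 337 CPM in plasma cell-like cells (148, 343 and 436 over 8 runs), against 105 in mature B cell-like cells (25.3, 102 and 130 over 7 runs), with no overlap and a log2 difference of 2.61. Uqcrq of complex III was at 299 against 171 CPM (1.79), and Ndufs5 of complex I at 141 against 98.8 (1.49). Levels of Ndufs5 overlapped between runs (102 to 278 against 66.6 to 147), while those of Uqcrq did not (197 to 419 against 131 to 189). No mt- gene was called, with a median of -0.14, whose sign was not stable: it was 0.20 with 1 CPM added, 0.087 with a minimum of 50 CPM and 0.042 without run 8. The count of higher nuclear members was 29 with 1 CPM added and 24 with a minimum of 50 CPM. Without centring, the nuclear median was -0.50, with 1 member higher and 9 lower. Shares of all genes called were not counted under these settings. With no minimum level the nuclear median was negative too. With immunoglobulin genes also left out of the total, an alternative added after the values were seen, nuclear members summed to 23833 CPM in plasma cell-like cells and 15190 in mature B cell-like cells, and the median without centring was 0.58. On that scale the mt- genes summed to 69480 and 65324 in the same order. The ratio of mt- to nuclear UMIs, which needs no scale, was 2.92 in plasma cell-like cells and 4.30 in mature B cell-like cells, with run ranges of 1.92 to 4.11 and 3.21 to 6.01 that overlapped.

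**Figure D5:**
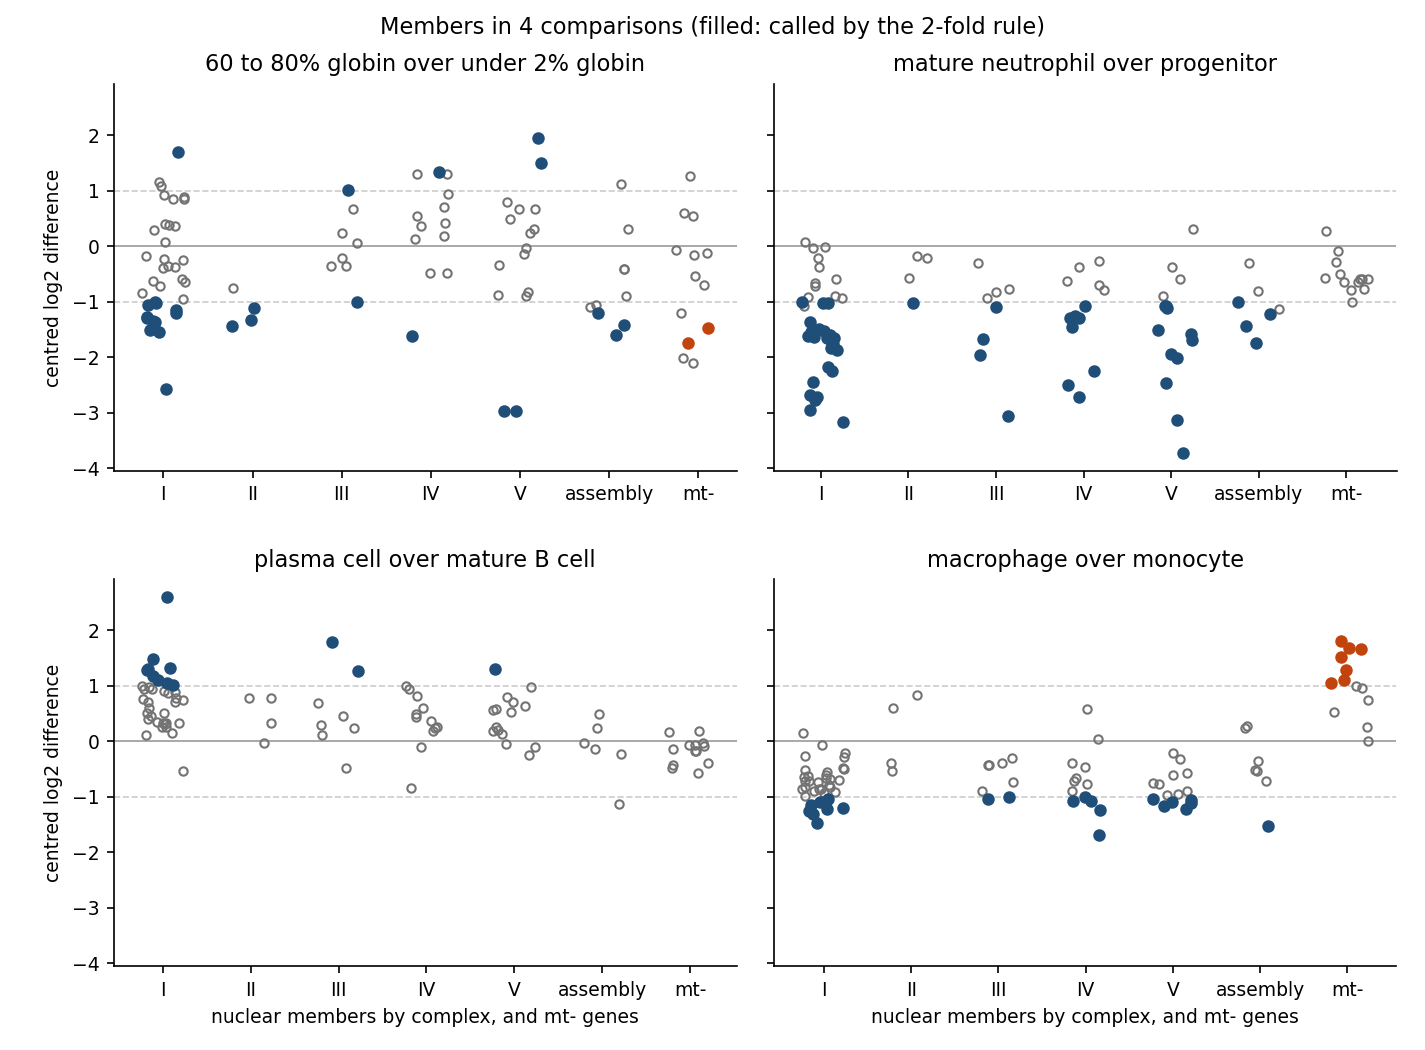
Centred log2 difference (vertical axis) of each measured member in 4 comparisons, with nuclear members by complex and mt- genes at the right. Filled points were called by the 2-fold rule and dashed lines mark 2-fold. In mature neutrophil-like cells 52 of 83 nuclear members were lower, and in macrophage-like cells 7 mt- genes were higher.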

How the data were processed

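The deposited table holds raw UMI counts per gene and cell, with no normalization. Per the submitters' processing notes, Cell Ranger 5.0.0 and Seurat 3.1.5 were used with the mm10 build, and libraries were made with a droplet 3′ kit, per the labels' protocols. Members and lists were chosen with earlier results of these data known.

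Cells (at least 200 genes, at most 20% mt- UMIs) were clustered with scanpy 1.11.5 and leidenalg 0.10.2 (2000 variable genes, 30 components, resolution 1). Only 5 members were among the variable genes. Clusters were named from marker lists, with at least 3 markers detected and at least 1 of them among the leading genes. The name of erythroid-like cluster 8 rests on 1 leading marker, and those of erythroid-like clusters 5 and 26 on 2 each. A doublet caller marked only 17 cells (0.0682%). Why it marked so few was not tested, no cell was left out for it, and doublets may remain. Counts were summed per class and run. Ratios carry exact binomial 95% intervals, for counting error only. Differences are log2 of levels with 10 CPM added, over genes that reach 20 CPM in one of the classes compared, centred on the median measured gene, and ranges over runs need at least 20 cells. The comparison rule was run on simulated counts with known changes in a small part of the genes and only counting error between runs. Those counts were simpler than the real ones, so they do not show how the rule handles differences between runs. Named genes are the 3 highest and 3 lowest called members of each comparison, the mt- genes, the paralogues, up to 3 called genes of each other list and the 5 genes most like the nuclear sum; Cox6a1 and Uqcrh, and values over stages of other members, were chosen after their values were seen. Positions are from GENCODE M21 (GRCm38) for 104 of 105 members.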

Additional observations from a re-analysis of the deposited data

How the results depend on the processing

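Differences between classes were also taken within each barcode run. No pairing by sample or replicate was possible, because the columns of the table carry no such number. Ratios, medians, counts of called members and named genes were recomputed under each alternative, and of the ratios, shares, medians and counts 346 stayed near the value reported, 46 moved and 6 turned in direction, while with a run left out 307 stayed, 4 moved and 1 turned. Near means within 1 standard deviation over runs for ratios, shares and medians, and within a set fold for counts. Results that varied most between runs could therefore move most and still count as near. That standard deviation was 1.31 for the ratio under 2% globin and 1.99 in macrophage-like cells. Macrophage-like ratios of 4.04 to 6.44 with a run left out counted as near 5.41. Medians are log2 differences, counts are of nuclear members, and each value stands beside that of the reported setting. Shares of all genes called were counted for the reported settings only, so counts under the alternatives cannot be set against them.

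With 1 CPM added, the erythroid count higher was 11 against 5, the nuclear medians -1.44 against -1.22 (neutrophil) and 0.79 against 0.51 (plasma), the plasma mt- median turned to 0.20 against -0.14, and the plasma count higher was 29 against 12. Not centred, the erythroid nuclear median was -1.21 against -0.35 with 1 higher and 49 lower against 5 and 22, the neutrophil medians were -2.01 (nuclear) and -1.39 (mt-), and the plasma medians -0.50 and -1.16 with 1 higher and 9 lower. On CPM of all UMIs, not centred, the erythroid medians were -2.45 and -2.68 with 0 higher and 83 lower, Ndufb11 at -0.76 and Atp5l at -0.997 turned, the neutrophil medians were -1.96 and -1.34, and the plasma medians -0.46 and -1.11 with 1 higher and 8 lower. With immunoglobulin left out and no centring, the plasma mt- median was 0.049 with 1 member lower. With no minimum level, the erythroid nuclear median was -1.04 with 1 higher and 48 lower, the neutrophil medians -1.80 and -1.31, and the plasma medians -0.25 and -0.91 with 2 higher and 5 lower. With a minimum of 50 CPM, the erythroid count higher was 2, the plasma medians were 0.75 and 0.087 and the plasma count higher was 24. With cells of at least 500 genes and at most 10% mt- UMIs, the macrophage mt- median was 0.70 against 1.05, its count lower 7 against 22, and the plasma count lower 1 against 0. At cluster resolution 0.5, the ratio was 1.28 against 1.06 in immature and 1.54 against 2.90 in mature neutrophil-like cells, the neutrophil medians were -0.93 and -1.29, and the plasma count lower was 1, as at resolution 2 and without repeated barcodes. With members left out of the variable genes, the ratio of immature neutrophil-like cells was 1.29. Set against 2 to 20% globin, 2 erythroid members were higher, and without the shallow clusters 11. Leaving out a run in turn gave macrophage counts lower of 6 to 36, plasma mt- medians of -0.18 to 0.042 (above 0 without run 8) and plasma counts lower of 0 to 1. The causes were not tested.

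Depth limits the late erythroid and mature neutrophil values, where members near 20 CPM rest on few UMIs, and ranges over runs rest on 3 to 8 barcode runs, which the table does not tie to libraries. The immunoglobulin, shallow-cluster, repeated-barcode, doublet-score and 2 to 20% globin alternatives were chosen after seeing the data.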

Other observations

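Some shallow clusters had a low mt- ratio beside deeper clusters with like leading genes. These values were chosen after they were seen. The unnamed cluster led by Fcgr4 and Fabp4 (1306 cells, median 805.5 UMIs) had 0.598 mt- UMIs per nuclear UMI, against 4.24 in the unnamed cluster led by Fcgr4 and Cd300e (375 cells, median 6535 UMIs). Its nuclear members summed to 29250 CPM, against 16966 in the deeper cluster. The shallow erythroid-like cluster 8 stood at 0.36 against 1.82 in cluster 26, and in megakaryocyte and platelet-like cells the shallower part of the cells had 0.877 and the deeper part 1.96. The direction was not general, since in mature neutrophil-like cells the shallower part had 3.98 and the deeper part 2.43, and within cluster 8 the shallower part had 0.768 and the deeper part 0.295.

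Genes outside the family whose level over the 20 groups was most like the mt- sum were Snx5 (Pearson correlation 0.876), Ado (0.873), Specc1l (0.863), Ankrd40 (0.862) and Mtmr2 (0.862). None of them is among the 5 most like the nuclear sum.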
